A study of Homo sapiens with 9 samples.

Results

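The genes described here are 55 genes of mitosis, chosen by symbol, with the kinesin motors left out as a class. They were set in 7 roles: CDK1 with the mitotic cyclins and their regulators, mitotic kinases, the spindle checkpoint with sister chromatid separation, the centromere with the kinetochore and the chromosomal passenger complex, condensin with other mitotic chromosome proteins, spindle microtubule proteins, and the central spindle with cytokinesis. All 55 symbols were among the 59648 in the count files, and 54 of them were among the 14741 genes with enough counts to test. The exception to testing was NUSAP1, a microtubule-binding spindle protein, which lay between 0.113 and 0.404 CPM (counts scaled by library size) over the 9 libraries. CENPE is on the list as a kinetochore protein although it is itself a kinesin motor (kinesin-7).

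The cells were Kasumi-1, an established human acute myeloid leukaemia line in which the t(8;21) translocation joins RUNX1 to RUNX1T1 and so produces the fusion protein AML1-ETO (AE). RNA sequencing was done on 3 libraries with AE shRNA (numbered 1, 2 and 3), 3 libraries with LYL1 shRNA (numbered 538, 540 and 542) and 3 libraries with control shRNA (numbered 1, 2 and 3). An shRNA is a short hairpin RNA that lowers the mRNA it matches, and LYL1 is a basic helix-loop-helix transcription factor of blood stem and progenitor cells. Every group, controls included, was a day 4 culture that had gone through 48 h of lentiviral transduction and then 48 h in 1 µg/mL puromycin, which kills cells without the hairpin vector. Values of 3 libraries are given below in the order of these numbers. The labels do not say whether AE numbers 1, 2 and 3 mark different hairpins or repeats of the same hairpin. They also leave unsaid whether libraries of a group came from separate cultures, and a p-value here covers no more than the variation among the libraries sequenced.

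As background, mitosis starts when CDK1 bound to cyclin B phosphorylates many proteins, after which condensin and topoisomerase II compact the chromosomes, kinetochores capture spindle microtubules, and the spindle checkpoint holds back the anaphase-promoting complex (APC/C) until every chromosome is attached. Most genes of this machinery are transcribed in G2 and M phase, under the MuvB complex with B-MYB and FOXM1, and are held off in resting cells by the DREAM complex at short promoter elements. Their mRNAs are therefore widely used as a measure of cycling cells, and MKI67 encodes the Ki-67 protein that pathologists stain for this purpose.

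Library totals ran between 20103275 and 28039518 counts. RUNX1T1, the ETO part of the fusion, was at 52.6%, 63.0% and 40.5% of the control mean in the AE knockdown libraries and was called lower there. LYL1 was at 49.5%, 60.5% and 27.0% of the control mean in the LYL1 knockdown libraries and was not called (edgeR adjusted p = 0.526). Of the blast markers, KIT, a receptor kinase, lay between 434 and 1368 CPM over the 9 libraries and the granule enzyme MPO between 11418 and 32465 CPM. AZU1 ran between 322 and 1622 CPM and PRTN3 between 1745 and 5549 CPM. Levels were lower for CD33 (27.8 to 173 CPM) and POU4F1 (22.7 to 45.9 CPM), and CD34 was low in some libraries (1.14 to 53.2 CPM). Of 20 markers of B cells, T cells, erythroid cells and epithelial cells, 16 stayed under 1 CPM in every library and 8 of those were at 0 in every library, HBA1, HBA2, HBG1, HBG2, MS4A1 and CD3G among them. The summed B-cell markers were 5.04, 4.72 and 20.5 CPM in the AE knockdown libraries, 16.1, 4.80 and 5.03 CPM in the LYL1 knockdown libraries and 9.26, 8.32 and 7.51 CPM in the control libraries. Summed T-cell markers ran between 0.679 and 1.13 CPM in the AE knockdown, between 1.99 and 5.33 CPM in the LYL1 knockdown and between 3.99 and 5.95 CPM in the controls, and CD3D was called lower in the AE knockdown. The highest B-cell sum was that of AE knockdown library 3, with CD79A at 16.7 CPM, and its mitochondrial rRNA share, 1.21%, was the highest too. The part of these differences in the results below was not tested.

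AE knockdown against control asks how expression changes when the fusion is lowered. A gene was called at an adjusted p below 0.05 in the quasi-likelihood test of edgeR, with Benjamini-Hochberg adjustment over all 14741 genes tested. Below, fell and rose are used only of genes called lower or higher. In the AE knockdown 14 of the 54 members fell (25.9%), where 10.4% of all genes tested were called lower. No member was called higher, where 11.4% of all genes tested were. At an unadjusted p below 0.05, 1 member, CENPN, was higher and 20 were lower, against 20.1% and 17.1% of all genes. DESeq2 called 15 members lower and 0 higher, against 1978 (13.4%) and 1949 of all genes. With limma-voom 14 were called lower and 0 higher, against 1566 (10.6%) and 1393 of all genes. The members' median log2 fold change was -0.22, beside 0.048 over all genes tested, and their values ran between -1.01 and 0.34. Of these 54 values 45 were below 0 and 9 above, against 6883 and 7858 of all 14741 genes tested. The largest falls were those of INCENP, the scaffold of the chromosomal passenger complex, MKI67, PLK1, a kinase needed for spindle assembly, and TPX2, which nucleates spindle microtubules. In RNA from a whole culture, fewer cells in mitosis and less mRNA of these genes per cell cannot be told apart.

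All 3 AE knockdown libraries lay below all 3 control libraries for 22 of the 54 members tested (40.7%), against 22.2% of all genes tested. All 3 lay above the controls for 2 members, CDCA5 and CENPN (3.7%), against 23.1% of all genes tested, and for the other 30 members the groups overlapped. Summed over all 55 members, the AE knockdown libraries held 5730, 6984 and 5205 CPM, the LYL1 knockdown libraries 7173, 7438 and 6888 CPM, and the control libraries 7696, 7814 and 7872 CPM. These sums averaged 5973 ± 914 CPM in the AE knockdown, 7166 ± 275 CPM in the LYL1 knockdown and 7794 ± 89.6 CPM in the controls (SD, n = 3 each). Every knockdown sum lay below every control sum, and AE knockdown library 2 lay above LYL1 knockdown library 542. The median member stood at a log2 ratio of -0.41, -0.03 and -0.40 to the control mean in AE knockdown libraries 1, 2 and 3, and at -0.09, -0.04 and -0.11 in LYL1 knockdown libraries 538, 540 and 542.

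**Figure D1:**
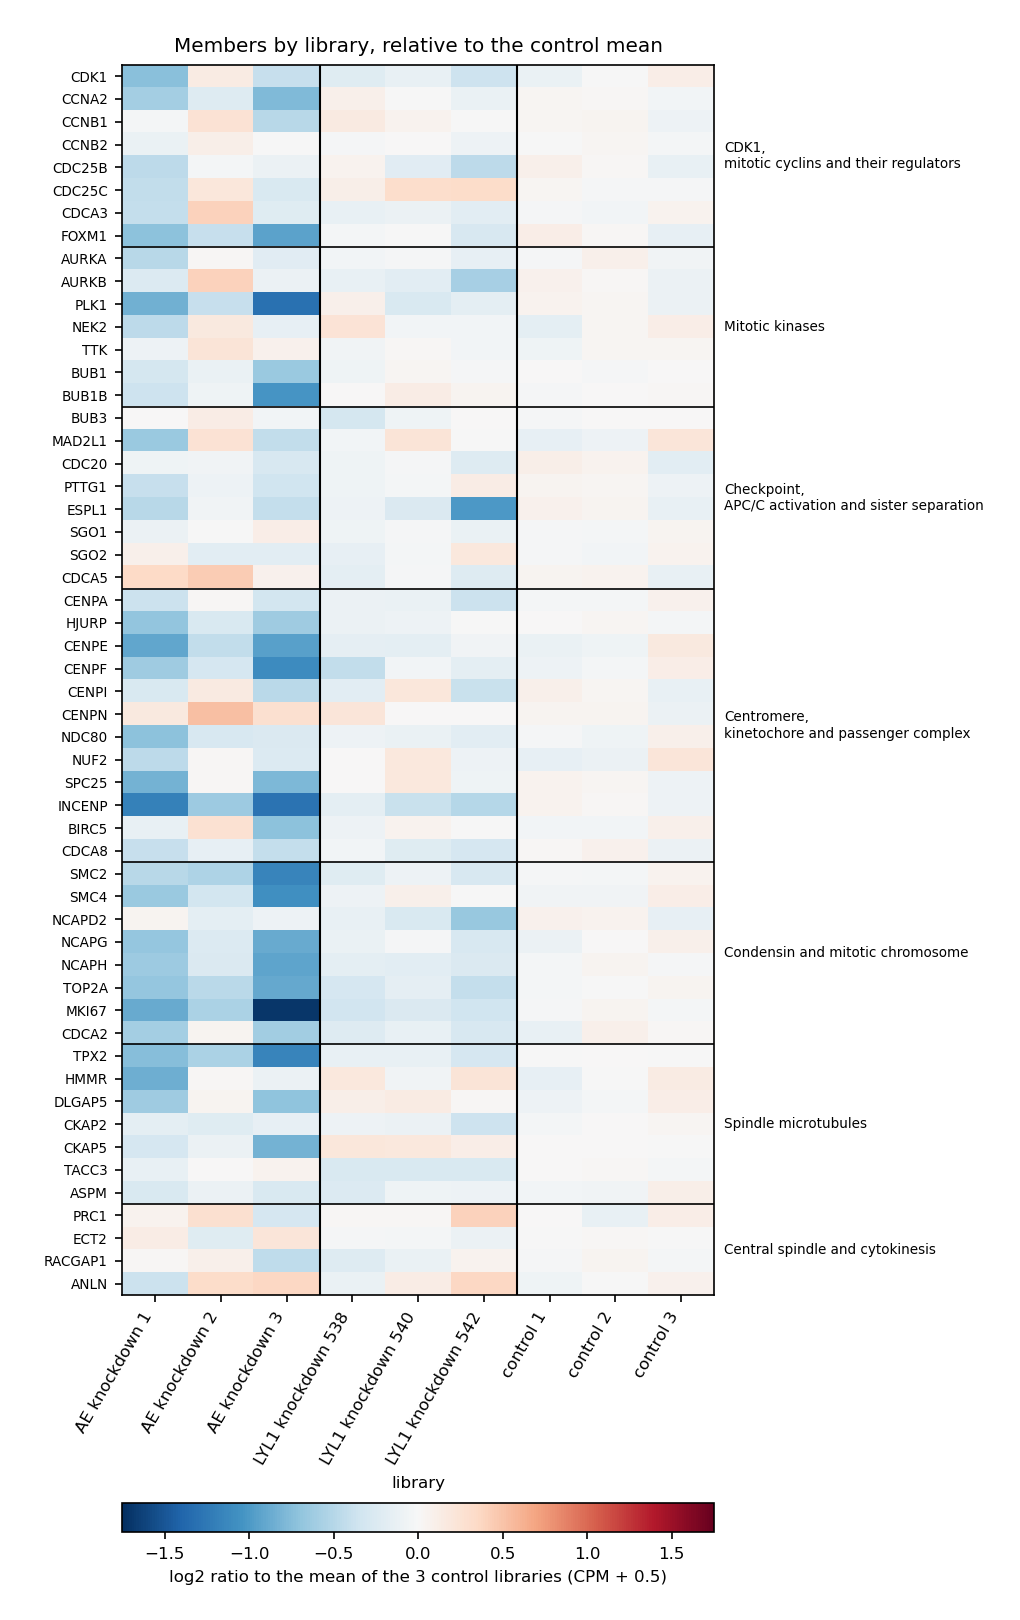
Each row is a member, each column a library, and the colour gives the log2 ratio of the library's CPM + 0.5 to the mean of the 3 control libraries (blue lower, red higher), for the 54 members tested. AE knockdown libraries 1 and 3 are blue in most rows, while library 2 is paler. Over all 55 members, with NUSAP1, which is not drawn, 47, 29 and 48 were below the control mean in libraries 1, 2 and 3.

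The 3 AE knockdown libraries were not alike. Library 2 was the highest of the 3 for 46 of the 55 members (83.6%), while it was the highest for 31.8% of all genes tested. Library 3 was the lowest of the 3 for 28 of the 55 members and library 1 for 23, beside 37.5% and 27.3% of all genes tested. The same library 2 kept the most RUNX1T1 (63.0% of the control mean); the part of this in the members' levels was not tested. The median coefficient of variation of a member was 20.6% among the AE knockdown libraries, 8.15% among the LYL1 knockdown libraries and 5.59% among the control libraries, beside 22.6%, 16.3% and 8.56% over all genes tested.

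Promoter sequences are shown for the members with the largest falls that had one in the RefSeq promoter table (GRCh38.p14), for TOP2A, the member with the highest level per length, and for CCNB2, the cyclin B2 gene, which was called in no comparison. These genes were chosen after their values were seen. Each sequence holds the 250 bases before the gene's start, read in the direction of transcription, and capitals mark matches, on either strand, to the CHR element (TTTGAA or TTCGAA, bound by MuvB) and to the CCAAT box (CCAAT, bound by NF-Y).
INCENP (chr11:62123761-62124010, plus strand): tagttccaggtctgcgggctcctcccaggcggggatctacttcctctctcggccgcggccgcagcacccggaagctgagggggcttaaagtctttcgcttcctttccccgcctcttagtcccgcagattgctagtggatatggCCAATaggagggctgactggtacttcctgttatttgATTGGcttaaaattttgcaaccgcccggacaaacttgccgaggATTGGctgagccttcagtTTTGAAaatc
MKI67 (chr10:128126424-128126673, minus strand): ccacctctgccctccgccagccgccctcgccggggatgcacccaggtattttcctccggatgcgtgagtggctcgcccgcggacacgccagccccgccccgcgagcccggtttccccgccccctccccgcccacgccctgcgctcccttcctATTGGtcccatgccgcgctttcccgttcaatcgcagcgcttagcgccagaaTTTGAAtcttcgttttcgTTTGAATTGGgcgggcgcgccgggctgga
PLK1 (chr16:23678639-23678888, plus strand): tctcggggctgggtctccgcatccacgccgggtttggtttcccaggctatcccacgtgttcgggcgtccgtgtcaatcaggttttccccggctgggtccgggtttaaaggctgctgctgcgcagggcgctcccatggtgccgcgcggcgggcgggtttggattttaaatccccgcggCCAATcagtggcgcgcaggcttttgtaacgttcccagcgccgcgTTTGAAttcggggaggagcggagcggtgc
CENPE (chr4:103198344-103198593, minus strand): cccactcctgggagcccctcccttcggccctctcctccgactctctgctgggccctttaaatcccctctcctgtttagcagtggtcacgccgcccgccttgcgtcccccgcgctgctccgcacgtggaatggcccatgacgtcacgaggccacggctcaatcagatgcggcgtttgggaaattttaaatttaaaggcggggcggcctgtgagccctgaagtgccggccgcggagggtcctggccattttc
TOP2A (chr17:40417897-40418146, minus strand): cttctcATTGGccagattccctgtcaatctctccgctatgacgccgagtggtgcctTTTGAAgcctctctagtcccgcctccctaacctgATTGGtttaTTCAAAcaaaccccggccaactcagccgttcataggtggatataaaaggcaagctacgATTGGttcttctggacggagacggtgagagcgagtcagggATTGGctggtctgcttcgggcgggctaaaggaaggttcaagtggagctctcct
CCNB2 (chr15:59104896-59105145, plus strand): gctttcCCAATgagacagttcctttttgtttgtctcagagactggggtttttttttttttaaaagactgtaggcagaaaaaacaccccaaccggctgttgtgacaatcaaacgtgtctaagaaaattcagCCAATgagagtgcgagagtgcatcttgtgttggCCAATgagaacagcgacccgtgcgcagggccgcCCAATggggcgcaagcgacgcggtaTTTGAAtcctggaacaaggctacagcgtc

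INCENP, MKI67, PLK1, TOP2A and CCNB2 each hold a CHR match and at least 1 CCAAT box in this stretch, with 4 CCAAT boxes in CCNB2 and 4 in TOP2A. The CENPE sequence shows neither set of letters. In MKI67 a CHR match and a CCAAT box (as ATTGG) overlap by 1 base, so that the capitals join. The table gave windows of 300 bases, reaching 50 bases past the start, for 47 of the 55 members (60 windows, since 9 members have several starts). A CHR match was found in 39 of these 60 windows (65%), against 11.9% of the windows of all genes tested, a CCAAT box in 41 (68.3%), against 34.6%, and both in 30 (50%), against 4.7%. Among windows of members that fell in the AE knockdown 64.3% held a CHR match and 57.1% a CCAAT box, and among windows of the other members 65.2% and 71.7%. The RUNX letters TGNGGT, on either strand, were found in 35.7% of the windows of members that fell, 39.1% of those of the other members and 40.8% of those of all genes tested. E2F letters (TTCGCGC or TTGGCGC, either strand) were found in 15% of the members' windows and 7.6% of the windows of all genes tested. The motifs were counted separately, and a stretch that matches more than one counts for each. AURKA, BUB3, CDCA2, FOXM1, RACGAP1, TPX2, TTK and BIRC5 were not among the windows.

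Of the 8 members around CDK1, 2 fell in the AE knockdown and the role's median log2 fold change was -0.17. FOXM1, the transcription factor that drives G2 and M phase genes, had 105, 131 and 90.2 CPM in the AE knockdown libraries, 168, 171 and 143 CPM in the LYL1 knockdown libraries and 187, 175 and 155 CPM in the control libraries. It fell by 0.67 on the log2 scale (SE 0.16, edgeR adjusted p = 0.0162). The AE knockdown libraries all lay below the other 6. CCNA2, cyclin A2, which pairs with CDK2 and CDK1 from S phase into mitosis, had 132, 171 and 117 CPM in the AE knockdown libraries, 214, 199.9 and 185 CPM in the LYL1 knockdown libraries and 206, 203 and 193 CPM in the control libraries. It fell by 0.52 on the log2 scale (SE 0.15, edgeR adjusted p = 0.0345), and its AE knockdown libraries also lay below all the others.

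CDK1, the kinase of mitotic entry, had 117, 214 and 146 CPM in the AE knockdown libraries, 167, 177 and 151 CPM in the LYL1 knockdown libraries and 178, 192 and 210.3 CPM in the control libraries. Library 2 of the AE knockdown was above every control while libraries 1 and 3 were below them, and CDK1 stood at a log2 fold change of -0.28 (SE 0.20, edgeR adjusted p = 0.319). CCNB1, cyclin B1, the partner of CDK1, had 146, 178 and 107 CPM in the AE knockdown libraries, 167, 157 and 149 CPM in the LYL1 knockdown libraries and 153, 154 and 141 CPM in the control libraries. Its groups overlapped, with a log2 fold change of -0.057 (SE 0.17, edgeR adjusted p = 0.835). CCNB2 had 123, 143 and 133 CPM in the AE knockdown libraries, 132, 133 and 126 CPM in the LYL1 knockdown libraries and 133, 136 and 130.4 CPM in the control libraries. This narrow range of values gave a log2 fold change of -0.0039 (SE 0.12, edgeR adjusted p = 0.986), and its sign turned with the scaling used. CDC25C, a phosphatase that switches CDK1 on, had 15.0, 23.3 and 16.8 CPM in the AE knockdown libraries, 21.8, 25.3 and 25.4 CPM in the LYL1 knockdown libraries and 20.8, 19.9 and 20.1 CPM in the control libraries. Its AE knockdown libraries overlapped the controls, at a log2 fold change of -0.14 (SE 0.18, edgeR adjusted p = 0.587). The other phosphatase, CDC25B, stood at a log2 fold change of -0.19, and CDCA3, which helps to degrade the CDK1 inhibitor WEE1, at -0.030; neither was called, and the sign for CDCA3 also turned with the scaling.

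Of the 7 mitotic kinases 1 fell, and the median log2 fold change was -0.21. PLK1, which acts from mitotic entry to cytokinesis, had 119, 163 and 86.6 CPM in the AE knockdown libraries, 228, 179 and 191 CPM in the LYL1 knockdown libraries and 224, 221 and 199.6 CPM in the control libraries. It fell by 0.81 on the log2 scale (SE 0.20, edgeR adjusted p = 0.0203), and AE knockdown library 3 was the lowest of the 9. BUB1, a checkpoint kinase at the kinetochore that also marks the centromere for the passenger complex, had 172, 197 and 136 CPM in the AE knockdown libraries, 202, 218 and 209.6 CPM in the LYL1 knockdown libraries and 214, 210.3 and 215 CPM in the control libraries. The AE knockdown libraries lay below all the others, but the log2 fold change of -0.34 (SE 0.15, edgeR adjusted p = 0.112) was not called. BUB1B, which encodes the checkpoint protein BUBR1, was likewise below in all 3 AE knockdown libraries and not called, at -0.44 (SE 0.20, edgeR adjusted p = 0.133).

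AURKA, Aurora kinase A of the centrosome and spindle, had 70.6, 99.8 and 85.7 CPM in the AE knockdown libraries, 95.8, 97.0 and 89.8 CPM in the LYL1 knockdown libraries and 96.9, 105 and 94.5 CPM in the control libraries. Library 2 of the AE knockdown lay within the controls' range and the other two were below it, and AURKA stood at a log2 fold change of -0.21 (SE 0.14, edgeR adjusted p = 0.304). AURKB, the Aurora kinase of the passenger complex, had 30.4, 48.0 and 33.6 CPM in the AE knockdown libraries, 32.9, 31.7 and 23.9 CPM in the LYL1 knockdown libraries and 38.1, 36.5 and 33.4 CPM in the control libraries. Its AE knockdown libraries lay on both sides of the controls, with a log2 fold change of 0.053 (SE 0.19, edgeR adjusted p = 0.864). NEK2, which splits the centrosomes, was at -0.12 and TTK, the checkpoint kinase MPS1, at 0.080, with overlapping groups.

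None of the 8 genes of the checkpoint and of sister separation was called in the AE knockdown, and their median log2 fold change was -0.11. CDCA5, or sororin, which keeps sister chromatids joined until anaphase, had 99.3, 107 and 82.1 CPM in the AE knockdown libraries, 69.6, 77.3 and 67.1 CPM in the LYL1 knockdown libraries and 81.1, 81.9 and 71.5 CPM in the control libraries. It had the highest log2 fold change of this role, 0.30 (SE 0.14, edgeR adjusted p = 0.14), and was above all controls in all 3 AE knockdown libraries. ESPL1, or separase, the protease that cuts cohesin, had 56.2, 75.7 and 58.8 CPM in the AE knockdown libraries, 74.3, 66.1 and 39.1 CPM in the LYL1 knockdown libraries and 82.9, 81.7 and 72.4 CPM in the control libraries. Library 542 of the LYL1 knockdown was its lowest value, and the AE knockdown libraries overlapped the controls, at a log2 fold change of -0.31 (SE 0.22, edgeR adjusted p = 0.313). PTTG1, or securin, the inhibitor of separase, was below the controls in all 3 AE knockdown libraries, at -0.28 (SE 0.13, edgeR adjusted p = 0.155). The checkpoint proteins MAD2L1 and BUB3 stood at -0.23 and 0.030, the APC/C activator CDC20 at -0.14, and the shugoshins SGO1 and SGO2, which protect centromeric cohesin, at 0.0035 and -0.089. All 5 had overlapping groups, and the sign for SGO1 turned with the scaling.

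Of the 12 genes of the centromere, kinetochore and passenger complex 4 fell, with a median log2 fold change of -0.36 for the role. INCENP had 69.4, 101 and 63.9 CPM in the AE knockdown libraries, 140.1, 121 and 112 CPM in the LYL1 knockdown libraries and 164, 161 and 149 CPM in the control libraries. The 3 groups did not overlap, with the LYL1 knockdown between the other two. INCENP fell by 1.01 on the log2 scale (SE 0.18, edgeR adjusted p = 0.00564), the largest fall among the members. CENPE, the kinesin that carries chromosomes to the spindle equator, had 68.3, 95.3 and 66.8 CPM in the AE knockdown libraries, 115, 114 and 123 CPM in the LYL1 knockdown libraries and 119.5, 122 and 146 CPM in the control libraries. It fell by 0.75 on the log2 scale (SE 0.16, edgeR adjusted p = 0.0108), with the AE knockdown libraries below all others.

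CENPF, a large protein of the outer kinetochore, had 161, 203 and 116 CPM in the AE knockdown libraries, 184, 240.3 and 221 CPM in the LYL1 knockdown libraries and 234, 244 and 269.9 CPM in the control libraries. It fell by 0.64 on the log2 scale (SE 0.19, edgeR adjusted p = 0.038), although AE knockdown library 2 was above LYL1 knockdown library 538. HJURP, the chaperone that loads the centromeric histone, had 26.1, 35.1 and 27.3 CPM in the AE knockdown libraries, 39.4, 39.8 and 41.8 CPM in the LYL1 knockdown libraries and 42.2, 43.3 and 41.1 CPM in the control libraries. It fell by 0.52 on the log2 scale (SE 0.14, edgeR adjusted p = 0.0264). All 3 AE knockdown libraries lay below the others.

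The other 8 genes of this role were not called. The microtubule-binding NDC80 complex was represented by NDC80 at -0.41 (SE 0.15, edgeR adjusted p = 0.0673), SPC25 at -0.48 (SE 0.21, edgeR adjusted p = 0.125) and NUF2 at -0.21. NDC80 was below the controls in all 3 AE knockdown libraries, while SPC25 and NUF2 overlapped them. In the passenger complex, CDCA8, or borealin, was below the controls in all 3 libraries at -0.31 (SE 0.13, edgeR adjusted p = 0.11), and BIRC5, or survivin, overlapped them at -0.14. The centromeric histone CENPA was at -0.22 and CENPI, of the inner kinetochore, at -0.17. CENPN, which reads the centromeric histone, had 29.0, 37.2 and 31.4 CPM in the AE knockdown libraries, 29.95, 25.9 and 25.7 CPM in the LYL1 knockdown libraries and 26.5, 26.6 and 23.9 CPM in the control libraries. It had the highest log2 fold change of all members, 0.34 (SE 0.15, edgeR adjusted p = 0.111), and all 3 AE knockdown libraries exceeded the controls.

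Of the 8 genes of condensin and of the mitotic chromosome 6 fell (75%), with a median log2 fold change of -0.62. MKI67, whose protein coats mitotic chromosomes, had 224, 282 and 127 CPM in the AE knockdown libraries, 327, 346 and 325 CPM in the LYL1 knockdown libraries and 409, 427 and 405 CPM in the control libraries. Its groups did not overlap, and the LYL1 knockdown lay between the other two. MKI67 fell by 0.97 on the log2 scale (SE 0.23, edgeR adjusted p = 0.0161), and AE knockdown library 3 was the lowest of the 9. TOP2A, topoisomerase II alpha, which untangles sister chromatids, had 533, 619 and 461 CPM in the AE knockdown libraries, 695, 768 and 640.1 CPM in the LYL1 knockdown libraries and 831, 848 and 885 CPM in the control libraries. Here too the groups did not overlap and kept that order, and TOP2A fell by 0.67 on the log2 scale (SE 0.15, edgeR adjusted p = 0.013).

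SMC2, an ATPase subunit shared by both condensins, had 142, 136 and 89.2 CPM in the AE knockdown libraries, 171, 186 and 163 CPM in the LYL1 knockdown libraries and 195, 193 and 207 CPM in the control libraries. It fell by 0.70 on the log2 scale (SE 0.17, edgeR adjusted p = 0.0178), with no overlap between the 3 groups. SMC4, the partner ATPase of SMC2, had 261, 328 and 193 CPM in the AE knockdown libraries, 383, 434 and 405 CPM in the LYL1 knockdown libraries and 389, 392 and 443 CPM in the control libraries. It fell by 0.65 on the log2 scale (SE 0.18, edgeR adjusted p = 0.0288). The LYL1 knockdown libraries of SMC4 overlapped the controls, unlike those of SMC2.

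NCAPH, the condensin I subunit that bridges the ATPase heads, had 95.4, 124 and 78.2 CPM in the AE knockdown libraries, 132, 131 and 125 CPM in the LYL1 knockdown libraries and 145, 154 and 147 CPM in the control libraries. It fell by 0.58 on the log2 scale (SE 0.16, edgeR adjusted p = 0.027), with the AE knockdown libraries narrowly below those of the LYL1 knockdown. NCAPG, a HEAT-repeat subunit of condensin I, had 72.2, 97.4 and 62.4 CPM in the AE knockdown libraries, 106, 114 and 95.2 CPM in the LYL1 knockdown libraries and 108, 115 and 123 CPM in the control libraries. It fell by 0.57 on the log2 scale (SE 0.17, edgeR adjusted p = 0.0324), with AE knockdown library 2 above LYL1 knockdown library 542. NCAPD2, the other HEAT-repeat subunit, had 279, 239.9 and 253 CPM in the AE knockdown libraries, 247, 224 and 170.5 CPM in the LYL1 knockdown libraries and 285, 281 and 244 CPM in the control libraries. This subunit was not called, at -0.069 (SE 0.16, edgeR adjusted p = 0.778), and library 542 of the LYL1 knockdown held its lowest value. CDCA2, which brings a phosphatase to chromatin at mitotic exit, was at -0.35 (SE 0.18, edgeR adjusted p = 0.177), with AE knockdown library 2 among the controls.

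**Figure D2:**
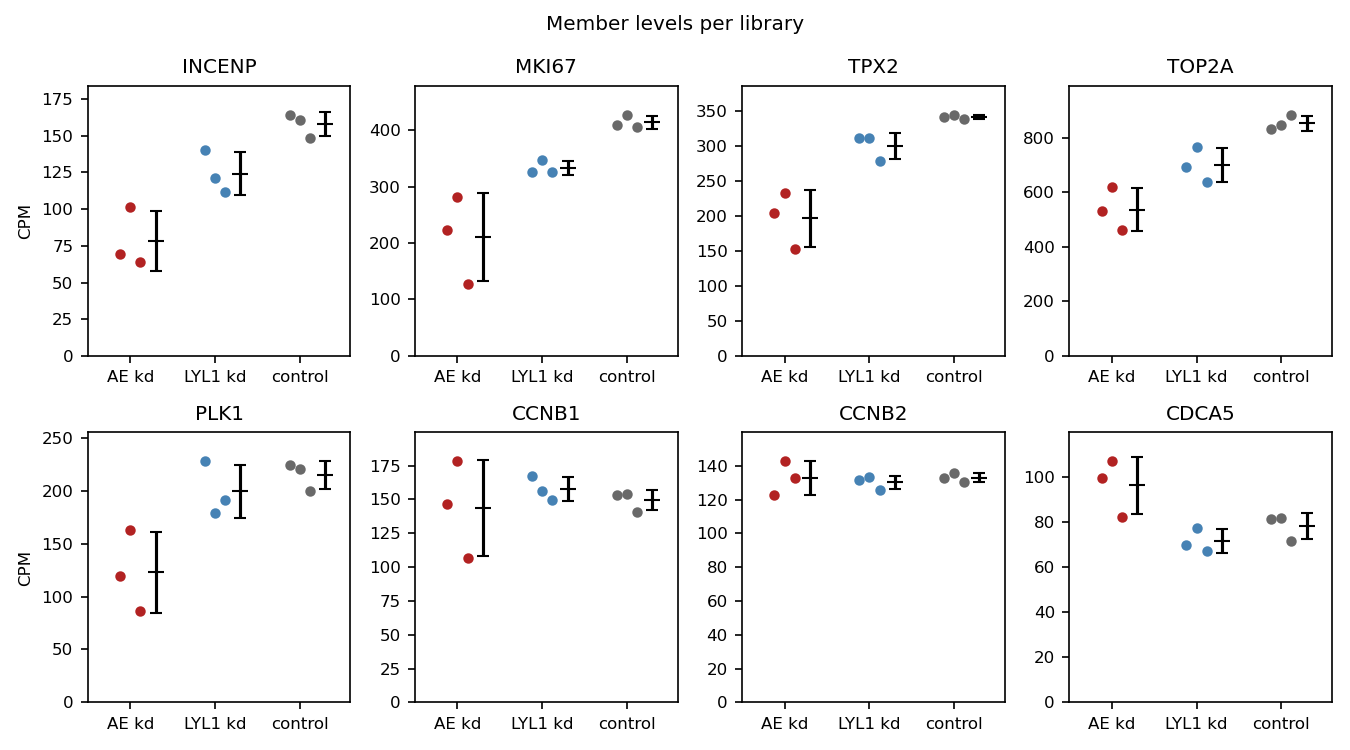
CPM of 8 members in the 3 libraries of each group (points, in the order of the library numbers), with the mean and SD (bars) beside them; kd stands for knockdown and every vertical axis starts at 0. INCENP, MKI67, TPX2 and TOP2A show 3 separate groups, PLK1 a lower AE knockdown group, CCNB1 and CCNB2 overlapping groups, and CDCA5 a higher AE knockdown group. The lowest AE knockdown value of CDCA5, 82.1 CPM, was close to its highest control value, 81.9 CPM, and CDCA5 was not called against control.

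Of the 7 spindle microtubule genes tested 1 fell, and their median log2 fold change was -0.26. TPX2, which also activates Aurora kinase A, had 204, 232 and 153 CPM in the AE knockdown libraries, 311, 311 and 278 CPM in the LYL1 knockdown libraries and 341, 344 and 338 CPM in the control libraries. The groups did not overlap, with the LYL1 knockdown between the other two, and TPX2 fell by 0.80 on the log2 scale (SE 0.16, edgeR adjusted p = 0.00847). CKAP5, the microtubule polymerase chTOG, had 227, 260.4 and 157 CPM in the AE knockdown libraries, 321, 317 and 304 CPM in the LYL1 knockdown libraries and 281, 280.3 and 278 CPM in the control libraries. The 3 groups were separate here as well, but with the LYL1 knockdown above the controls. Against control CKAP5 stood at -0.38 (SE 0.17, edgeR adjusted p = 0.13).

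TACC3, which binds CKAP5 to spindle fibres, had 155, 171 and 177 CPM in the AE knockdown libraries, 141, 141 and 142 CPM in the LYL1 knockdown libraries and 171, 173 and 167 CPM in the control libraries. Its AE knockdown libraries overlapped the controls at -0.020 (SE 0.11, edgeR adjusted p = 0.914), a value whose sign turned with the scaling. ASPM, of the spindle poles, was at -0.21 and CKAP2, a microtubule stabiliser, at -0.18, both below the controls in all 3 AE knockdown libraries and neither called. DLGAP5, or HURP, at -0.39 (SE 0.19, edgeR adjusted p = 0.154) and HMMR at -0.26, both of which bind spindle microtubules, had AE knockdown library 2 among the controls. For HMMR, AE knockdown library 3 lay among the controls too.

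No gene of the 4 in the central spindle and cytokinesis role was called, and their median log2 fold change was 0.058. ANLN, or anillin, the scaffold of the contractile ring, had 127, 206 and 211 CPM in the AE knockdown libraries, 152, 179 and 210.5 CPM in the LYL1 knockdown libraries and 156, 163 and 173 CPM in the control libraries. AE knockdown library 1 was below the controls and libraries 2 and 3 above them, and ANLN stood at a log2 fold change of 0.14 (SE 0.20, edgeR adjusted p = 0.631). PRC1, which bundles microtubules of the central spindle, had 2.54, 3.03 and 1.87 CPM in the AE knockdown libraries, 2.45, 2.44 and 3.34 CPM in the LYL1 knockdown libraries and 2.43, 2.15 and 2.64 CPM in the control libraries. These low levels gave 0.060 (SE 0.26, edgeR adjusted p = 0.885). The regulators of the GTPase RhoA in cleavage, ECT2 at 0.056 and RACGAP1 at -0.095, had overlapping groups.

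**Figure D3:**
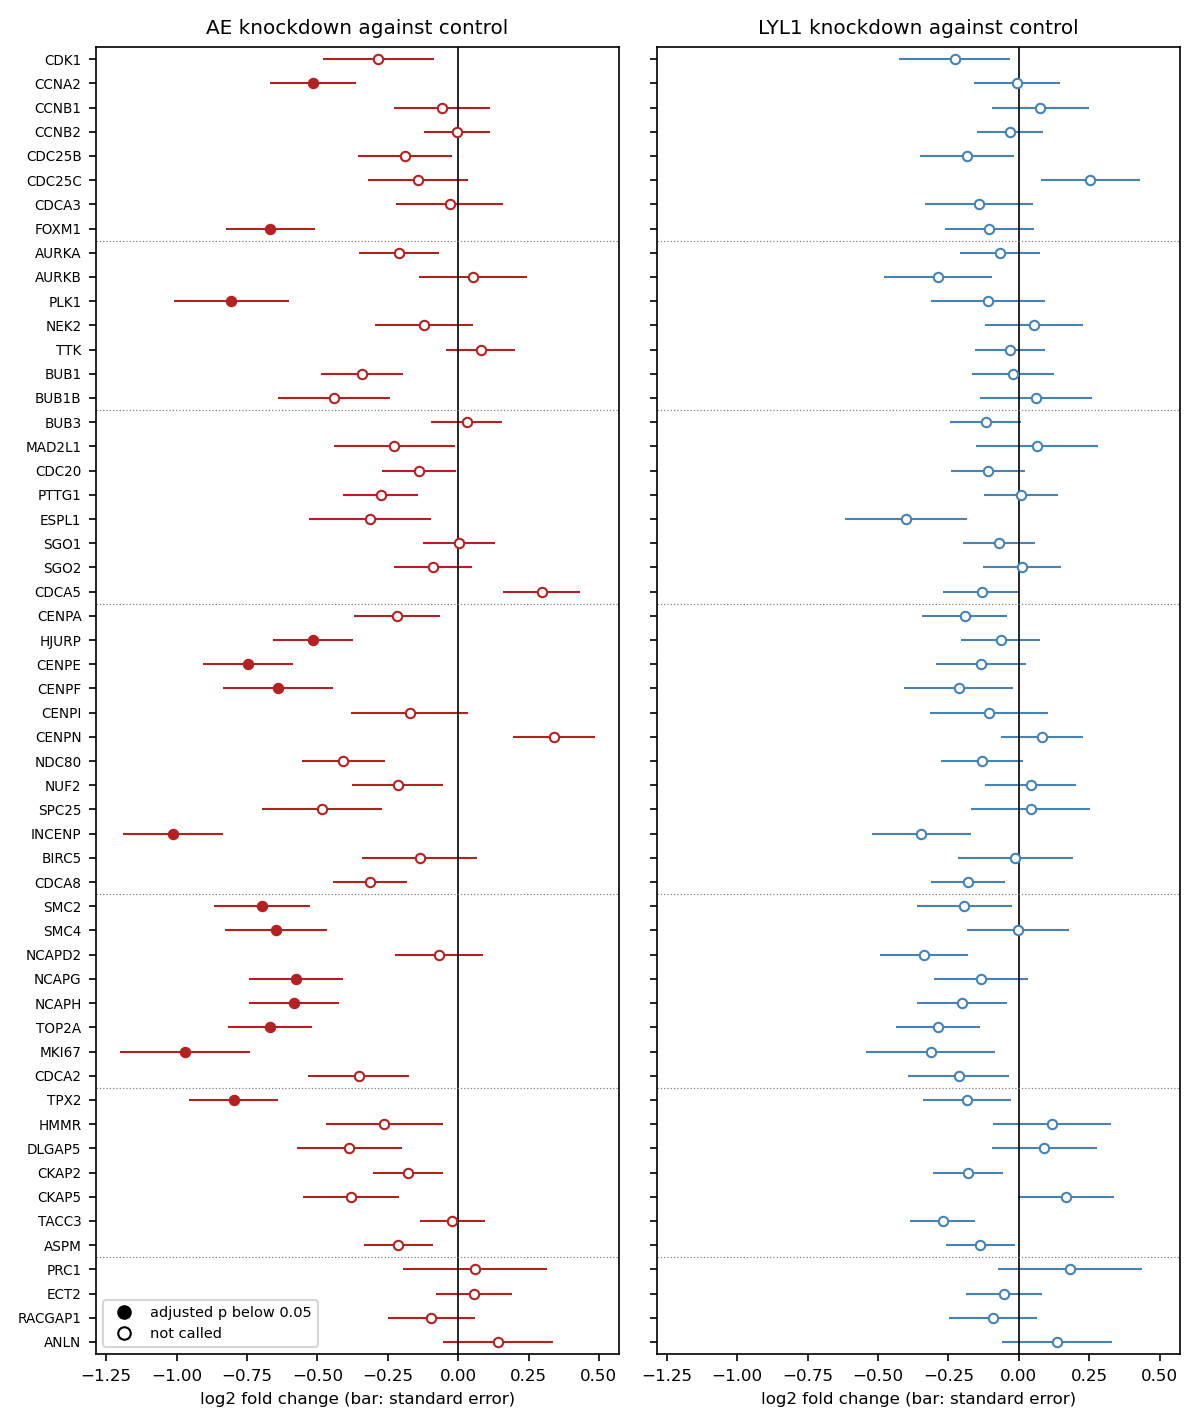
Log2 fold change of each of the 54 members tested, in the AE knockdown against control (left) and in the LYL1 knockdown against control (right), with its standard error (bars); filled points have an adjusted p below 0.05, and dotted lines part the roles. The left panel has 14 filled points, all below 0, and the right panel none.

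Read by role and library, the condensin and chromosome genes had median log2 ratios to the control mean of -0.64, -0.29 and -0.91 in the AE knockdown libraries and -0.19, -0.14 and -0.28 in the LYL1 knockdown libraries. In this role alone of the 7, all 3 AE knockdown medians were below all 3 LYL1 knockdown medians. For the genes around CDK1 the same medians were -0.44, 0.12 and -0.33 in the AE knockdown libraries and 0.020, -0.0088 and -0.15 in the LYL1 knockdown libraries. For the centromere and kinetochore genes they were -0.54, -0.063 and -0.55 in the AE knockdown libraries and -0.095, -0.068 and -0.13 in the LYL1 knockdown libraries. In AE knockdown library 2 the medians of the other 4 roles were 0.014 for the kinases, -0.035 for the checkpoint, -0.048 for the spindle and 0.18 for cytokinesis.

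**Figure D4:**
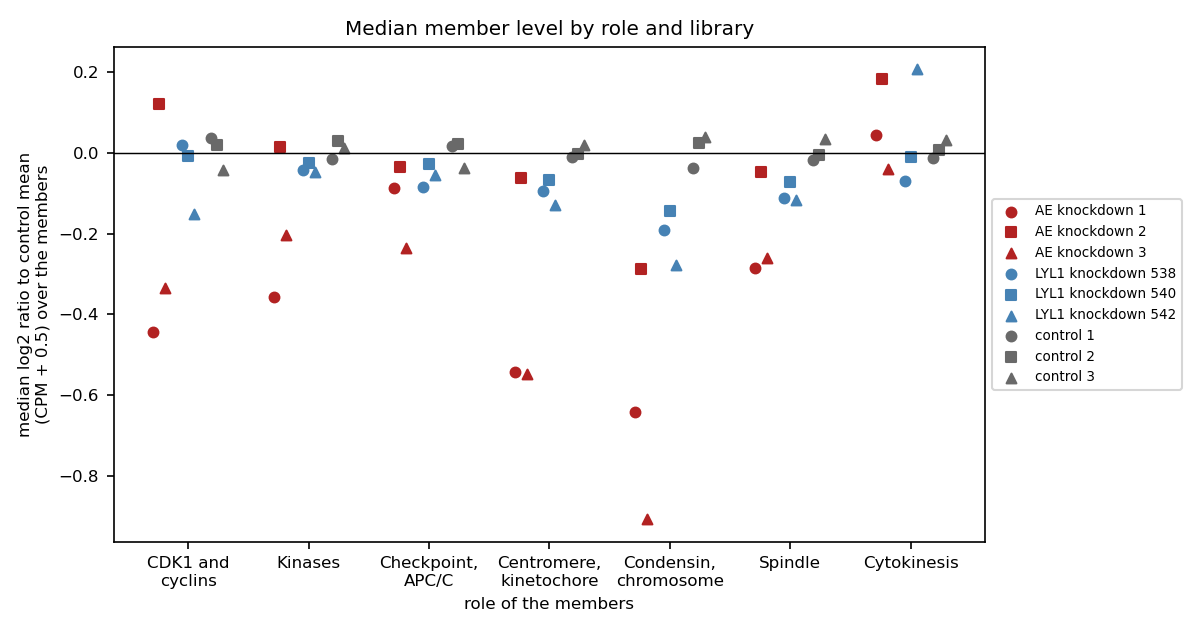
Median over the members of each role of the log2 ratio to the control mean (CPM + 0.5), with a point for each library, coloured by group and shaped by library. AE knockdown libraries 1 and 3 are lowest in the condensin and chromosome role, at -0.64 and -0.91, where library 2 is at -0.29.

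How far these calls rest on single libraries was checked by leaving out each in turn. INCENP and TPX2 were called lower in all 20 alternatives, including each of these fits. CENPE lost its call without control library 3, FOXM1 without control library 1 or 2, and the other 10 without any 1 of the 3 control libraries, so that 3 members remained called in each of these fits. Of all genes tested, 3.95%, 3.53% and 3.97% were called lower without control library 1, 2 or 3. Without AE knockdown library 1, 8 members and 9.77% of all genes tested were called lower, HJURP, NCAPH, SMC4, CCNA2, CENPF and NCAPG having lost their calls. CCNA2, CENPF and NCAPG also lost theirs without AE knockdown library 3, and CCNA2 and CENPF without LYL1 knockdown library 540. Without AE knockdown library 2, 24 members and 12.9% of all genes tested were called lower, BUB1, BUB1B, CDCA2, CDCA8, CDK1, CKAP5, DLGAP5, MAD2L1, NDC80 and SPC25 among them. The condensin role then had 7 calls, against 3 without AE knockdown library 1 and 0 without any 1 control library.

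LYL1 knockdown against control asks the same of LYL1 and uses the same 3 control libraries. No member was called in either direction by edgeR, DESeq2 or limma-voom, and over all genes tested edgeR called 0.00678% higher and 0.00678% lower, that is 1 gene each. At an unadjusted p below 0.05 edgeR had 0 members higher and 1 lower, TACC3, against 2.73% and 2.1% of all genes, and DESeq2 and limma-voom each had NCAPD2 and TACC3. The members' median log2 fold change was -0.10, beside 0.0054 over all genes tested. Of their 54 values 39 were below 0, against 7219 of all 14741 genes tested. All 3 LYL1 knockdown libraries lay below the controls for 16 members (29.6%), against 8.17% of all genes tested, and above them for 2 members, CDC25C and CKAP5 (3.7%), against 8.41%. Among the 8 condensin and chromosome genes 5 were below in all 3 libraries: SMC2, NCAPH, TOP2A, MKI67 and CDCA2.

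TACC3 stood at a log2 fold change of -0.27 (SE 0.12, edgeR adjusted p = 1), and its LYL1 knockdown libraries lay within 1 CPM of each other, below all controls. INCENP was at -0.35 (SE 0.18, edgeR adjusted p = 1), MKI67 at -0.31, TOP2A at -0.29 and TPX2 at -0.18, each below the controls in all 3 libraries. The lowest value was that of ESPL1, -0.40 (SE 0.22, edgeR adjusted p = 1), with library 542 far the lowest and overlapping groups. NCAPD2 was at -0.34 (SE 0.16, edgeR adjusted p = 1), AURKB at -0.29 (SE 0.19, edgeR adjusted p = 1) and CDC25C, on the higher side, at 0.25 (SE 0.18, edgeR adjusted p = 1). Library 542 was the lowest of the 3 for 33 of the 55 members and for 37.2% of all genes tested, and it was also the library with least LYL1 (27.0% of the control mean); the part of this was not tested. Without library 542 the members' median log2 fold change was -0.063.

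AE knockdown against LYL1 knockdown tests the difference between the knockdowns directly. In the AE knockdown 9 members were lower than in the LYL1 knockdown (16.7%), against 9.7% of all genes tested, and 1 was higher, against 10.7%, or 20.4% for both directions. At an unadjusted p below 0.05, 1 member was higher, against 19.1% of all genes, and 20 were lower, against 17.2%. The members' median log2 fold change was -0.14, beside 0.028 over all genes tested. All 3 AE knockdown libraries lay below the LYL1 knockdown libraries for 17 members (31.5%), against 17.2% of all genes tested, and above them for 2, CDCA5 and TACC3, against 18.2%.

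PLK1 fell by 0.70 on the log2 scale (SE 0.20, edgeR adjusted p = 0.0346) relative to the LYL1 knockdown, and INCENP fell by 0.67 on the log2 scale (SE 0.18, edgeR adjusted p = 0.0249). SMC4 fell by 0.65 on the log2 scale (SE 0.18, edgeR adjusted p = 0.0302) and was the one condensin gene called, since SMC2, at -0.50 (SE 0.17, edgeR adjusted p = 0.058), was not. The log2 fold changes of the other lower calls were -0.61 for CENPE, -0.61 for TPX2, -0.56 for FOXM1, -0.55 for CKAP5, -0.51 for CCNA2 and -0.45 for HJURP. Their edgeR adjusted p-values ran between 0.0224 (TPX2) and 0.0445 (HJURP). CDCA5 was higher in the AE knockdown than in the LYL1 knockdown by 0.43 on the log2 scale (SE 0.14, edgeR adjusted p = 0.0485). MKI67 and TOP2A, which fell against control, were at -0.66 (SE 0.23, edgeR adjusted p = 0.065) and -0.38 (SE 0.15, edgeR adjusted p = 0.0906) here. None of the 10 calls was made from the 6 libraries alone or without LYL1 knockdown library 538. Of all genes, 3.28% and 6.25% were called lower in these fits. Leaving out other single libraries gave between 1 and 21 lower calls, beside 5.3% to 12.3% of all genes.

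The wider mitotic machinery was read from 7 further lists with 118 genes, of which 117 were tested. In the AE knockdown against control 20 of these fell (17.1%) and 9 rose (7.69%), against 10.4% and 11.4% of all genes tested, with a median log2 fold change of -0.19. In the LYL1 knockdown against control edgeR called none, and in the AE knockdown against the LYL1 knockdown 7 were lower (5.98%) and 6 higher (5.13%), both shares under those of all genes tested (9.7% and 10.7%). Of 3 genes of condensin II, the condensin that acts from prophase, 2 fell: NCAPD3 fell by 0.52 on the log2 scale (SE 0.14, edgeR adjusted p = 0.0263) and NCAPG2 fell by 0.68 on the log2 scale (SE 0.19, edgeR adjusted p = 0.029). Of 18 APC/C genes 6 fell and 4 rose. UBE2S, the enzyme that extends ubiquitin chains for the APC/C, fell by 1.02 on the log2 scale (SE 0.25, edgeR adjusted p = 0.0193), and the subunit ANAPC11, which carries its catalytic RING finger, rose by 0.71 on the log2 scale (SE 0.15, edgeR adjusted p = 0.0103).

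Of 27 centrosome and spindle genes 6 fell and 1 rose. NUMA1, which anchors microtubules at the spindle poles, fell by 0.67 on the log2 scale (SE 0.12, edgeR adjusted p = 0.00576), and CKAP2L, another spindle protein, fell by 0.74 on the log2 scale (SE 0.14, edgeR adjusted p = 0.00697). Of 8 cytokinesis genes 3 fell and 0 rose. CIT, the citron kinase of the midbody, fell by 0.61 on the log2 scale (SE 0.13, edgeR adjusted p = 0.0119), and the septin SEPTIN2 fell by 0.52 on the log2 scale (SE 0.13, edgeR adjusted p = 0.0186). These calls stand beside 0 calls among the 4 members of the central spindle and cytokinesis role.

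The remaining lists had few calls. Of 32 further kinetochore and centromere genes tested 2 rose and 1 fell. CENPC, which links centromere and kinetochore, rose by 0.42 on the log2 scale (SE 0.12, edgeR adjusted p = 0.0312). The fall was that of KNL1, the kinetochore scaffold of the checkpoint proteins, which fell by 0.47 on the log2 scale (SE 0.15, edgeR adjusted p = 0.0484) and was named after its value was seen. Of 15 genes of entry kinases and phosphatase control, BORA, the activator of Aurora kinase A toward PLK1, rose by 0.60 on the log2 scale (SE 0.14, edgeR adjusted p = 0.0163), and HASPIN, a histone H3 kinase, fell by 0.53 on the log2 scale (SE 0.17, edgeR adjusted p = 0.0426). Of 14 genes of the MuvB and DREAM complexes, RBL2, the pocket protein p130 of DREAM, rose by 0.65 on the log2 scale (SE 0.17, edgeR adjusted p = 0.0245), and TFDP1, the partner of E2F proteins, fell by 0.78 on the log2 scale (SE 0.19, edgeR adjusted p = 0.0165).

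Per kilobase of exon (GENCODE v29 lengths), the control mean was highest for TOP2A, at 133 CPM per kb, followed by TPX2 at 94.6 and CCNA2 at 71.7. TOP2A averaged 83.5 CPM per kb in the AE knockdown, 109 in the LYL1 knockdown and 133 in the controls. CCNB1 averaged 56.2 CPM per kb in the AE knockdown, 61.7 in the LYL1 knockdown and 58.5 in the controls. Among the 54 members tested, CENPI at 3.92 and PRC1 at 0.435 CPM per kb were lowest in the controls, and NUSAP1 was at 0.0940. PRC1 and NUSAP1 were also the members with most exonic bases inside another annotated gene, 58.4% and 62.2%, while 34 members shared none and NCAPG, the next, shared 33.1%. The overlapping genes, AC068831.7 and AC087721.2, lie on the same strand and had mean control levels of 0.026 and 0 CPM. Of members that fell, NCAPG (33.1%), SMC4 (25.6%), FOXM1 (15.9%), PLK1 (12.5%) and CCNA2 (9.08%) share exonic bases with genes on the opposite strand. Reads of such genes cannot be told apart if strand was not used in counting. Mean control levels were 92.1 CPM for EXOSC9 (beside CCNA2), 37.3 for LCORL (NCAPG) and 19.0 for ITFG2 (FOXM1). For TRIM59 and IFT80 (SMC4) they were 10.3 and 5.37 CPM, and for AC008870.3 and ERN2 (PLK1) 0.014 and 0 CPM. Counts of PRC1 and NUSAP1 are likewise uncertain, and the effect of the overlap on them was not tested.

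**Figure D5:**
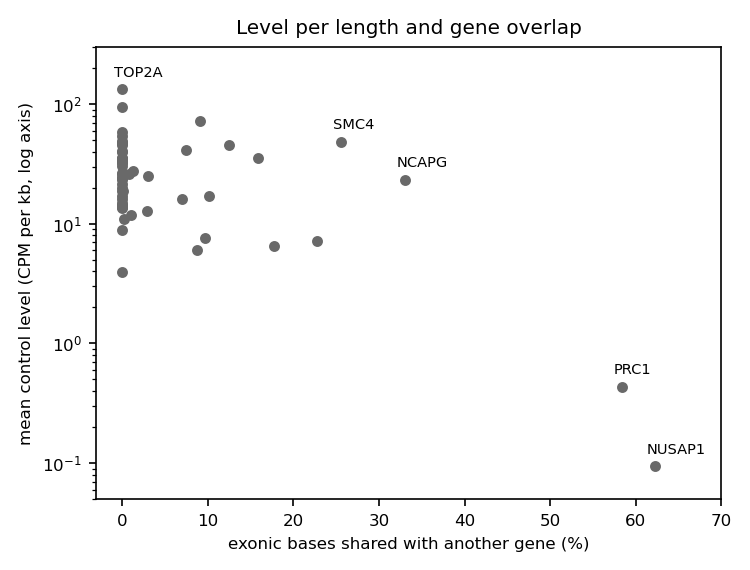
Mean control level in CPM per kb of exon (log axis) of the 55 members against the percent of their exonic bases that another annotated gene shares (GENCODE v29), with a point for each gene. PRC1 and NUSAP1 stand at the lower right, at 58.4% and 62.2% shared.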

How the data were processed

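The deposited files hold raw read counts per gene symbol, whole numbers that carry no normalisation, 1 file per library. The submitters' processing notes name the build hg19 and the tools featureCounts 2.0.1, HISAT2 2.2.0, fastp 0.20.1, DESeq2 1.26.0 and SAMtools 1.7, without saying what each did. The annotation, the strand setting and the counting of multi-mapping reads are not given in the sources used here, so genes that overlap another gene are uncertain.

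From the counts, CPM was computed with TMM-scaled library totals. Genes were kept with filterByExpr by group and compared in edgeR 4.0.16 (R 4.3.3, limma 3.58.1) by its robust quasi-likelihood test, with all 9 libraries in a group-means model and Benjamini-Hochberg adjustment over the 14741 genes kept. The standard error is the size of the log2 fold change divided by the square root of F. Log2 ratios per library add 0.5 CPM. Both knockdowns were compared with the same control libraries, so these comparisons are not independent. In some files 5 symbols carried a suffix, which was removed. No library repeated another. The smallest chi-square between libraries of a group was 3.56 per gene, between control libraries 1 and 2, above sampling noise. The other control pairs had 14.4 and 14.7 per gene, and pairs within the knockdown groups ran between 38.2 and 167.

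The members, their roles and all lists were chosen with earlier results of these data known. All 9 values are given for members called in any comparison, those of the smallest p of their role in a knockdown against control, and textbook genes of a mitotic population. CCNB2 and CENPN were added after their values were seen. In the wider lists, called genes among the 2 of smallest adjusted p are named. 1 gene of these lists is not reported here. Exon lengths and overlaps come from GENCODE v29 (GRCh38), which is not the files' build. Alternatives were other scalings, filters and tests (DESeq2 1.42.0, limma-voom), a fit of only the libraries compared, a stricter threshold, leaving out each library and a replicate block.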

Additional observations from a re-analysis of the deposited data

How the results depend on the processing

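No called member reversed in any alternative. Over 24 calls and 470 checks, 309 kept direction and threshold, 161 kept the direction and missed the threshold and 0 turned. The stricter threshold was applied to the main fit, so no direction could turn there. Of the 14 members lower in the AE knockdown against control, 8 were called when only the 6 libraries compared were fitted (8.85% of all genes, against 10.4%). With library size only, 11 of the 14 were called (9.61% of all genes), CCNA2, CENPF and NCAPG having lost their calls. Median-of-ratios and upper-quartile scaling kept all 14 (10.9% and 9.07% of all genes). At an adjusted p below 0.01, 2 were called (INCENP and TPX2), beside 2.97% of all genes called lower. Leaving out each library gave 3 to 24 lower calls, beside 3.53% to 12.9% of all genes, and 0 to 1 higher calls (CDCA5, without AE knockdown library 3). With the replicate number as a block, in a fit of the 6 AE and control libraries, 6 members and 6.18% of all genes were called lower. Deviations from the group mean, over all genes tested, had r = 0.057, -0.025 and 0.016 between AE and control libraries of the same number. These correlations take all genes together and cannot show whether the numbers pair the libraries, which the labels do not state. For the LYL1 knockdown against control, the members' median log2 fold change ran between -0.11 and -0.063 when each library was left out, and 0 members were called lower or higher. For the AE knockdown against the LYL1 knockdown, the 1 higher call (CDCA5) became 0 under median-of-ratios scaling, library size only, no low-count filter, limma-voom, the fit of only the 6 libraries and an adjusted p below 0.01, and ran between 0 and 1 when each library was left out. The 9 lower calls became 0 in the fit of only 6 libraries (3.28% of all genes) and 0 at an adjusted p below 0.01 (2.8%). They ran between 0 and 21 when each library was left out, beside 5.3% to 12.3% of all genes. Why these counts moved was not tested. The sign of the fold change was the same under 4 scalings for 50 of 54 members against control in the AE knockdown (not CCNB2, CDCA3, SGO1 and TACC3), 51 in the LYL1 knockdown (not CCNA2, BIRC5 and SMC4) and 47 between the knockdowns (not CCNB2, CDC25B, CDC20, CENPA, CKAP2, RACGAP1 and ANLN). With 3 libraries a group, the smallest log2 fold changes called in the AE knockdown against control were -0.52 (HJURP and CCNA2), while NDC80 at -0.41 was not called.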
